A study of Homo sapiens with 8 samples.

Results

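FDPS and ACAT2 encode enzymes of the mevalonate pathway, which builds sterols and isoprenoids from acetyl-CoA. Both were taken as the rows of the deposited table that carry the symbol FDPS or ACAT2, which gave 2 of 14944 loci, 1 row for each gene. The table covers MCF10A, a line of immortalised human breast epithelium that does not form tumours, in 4 groups of 2 total RNA libraries. AZD6738+IR cells received AZD6738, an inhibitor of the ATR kinase that answers replication stress, at 250 nM from 2 hours before 20 Gy of ionizing radiation. IR cells received the radiation with the solvent DMSO, AZD6738 cells the inhibitor alone, and DMSO cells the solvent alone, and the treatment lasted 3 days in every group. All cells grew in medium with horse serum, EGF, hydrocortisone, cholera toxin and insulin. Libraries carry the letters A and B of their columns. Whether A and B of a group were cultured apart is not stated, so p-values reflect the variation of these libraries alone, and that variation may be technical.

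In the mevalonate pathway, ACAT2, the cytosolic acetoacetyl-CoA thiolase, joins acetyl-CoA units in the opening step, and HMGCS1 acts on its product on the way to mevalonate. FDPS, farnesyl diphosphate synthase, makes farnesyl diphosphate, the branch point from which squalene and cholesterol, protein prenyl groups, ubiquinone and dolichol are made. In mammalian cells the pathway is switched on by the transcription factor SREBP-2 when sterol in the endoplasmic reticulum runs low, and FDPS is the target of the nitrogen-containing bisphosphonate drugs. ACAT2 is also an older name of SOAT2, a cholesterol-esterifying enzyme, but the RefSeq transcript in the ACAT2 row is that of the thiolase, and SOAT2 had no matching row.

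Values are FPKM, in which fragments are divided by the length of the transcript and by the size of the library. The table names no unit, so this is an assumption, and the depth behind a value is unknown. Summed over all loci, libraries held between 864305.7 and 969381.1 FPKM. The 4 most abundant loci took 61.42% of the total in AZD6738+IR library B and between 53.27% and 57.05% in the other 7. Of 8 epithelial markers, the 6 with a matching row were present in every group, with TP63 the lowest at a mean of 4.98 FPKM in AZD6738+IR and KRT17 the highest. Of 10 markers of other cell types only the macrophage marker CD68 had a row, at means of 11.36 FPKM in AZD6738+IR, 7.995 in IR, 7.934 in AZD6738 and 7.832 in DMSO. The epithelial markers KRT5 and KRT18 had no row either. As 5182 loci carried no symbol, a gene without a matching row, here and below, may still have been expressed. KRT8, KRT14, KRT17 and CDH1 were higher and TP63 and EPCAM lower with IR over DMSO, where 23.7% of all loci were higher and 38% lower. The part of these marker shifts in the results below was not tested.

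FDPS is annotated on chromosome 1 from 155308748 to 155320666 on the plus strand (GENCODE 29, hg38). The 250 bases before its RefSeq start (GRCh38.p14, chr1:155308616-155308865, plus strand) are shown. They hold the NF-Y and Sp1 motifs, which were among those searched for in sterol synthesis promoters. The GENCODE start at 155308748 lies within these bases, so their last part is inside the gene as GENCODE annotates it. Capitals mark every match, read 5′ to 3′.
FDPS: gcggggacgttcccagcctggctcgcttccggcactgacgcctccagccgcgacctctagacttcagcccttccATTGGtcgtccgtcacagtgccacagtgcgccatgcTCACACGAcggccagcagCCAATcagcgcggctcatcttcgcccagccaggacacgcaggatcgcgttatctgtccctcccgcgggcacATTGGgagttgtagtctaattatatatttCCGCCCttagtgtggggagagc
The NF-Y motif CCAAT occurs once on the plus strand, at -122, and on the minus strand, where it reads ATTGG, at -176 and -51. The Sp1 motif GGGCGG occurs once, on the minus strand at -22. Positions are counted from the RefSeq start, and the matches at -51 and -22 lie beyond the GENCODE start. The letters TCACACGA at -140, chosen after the sequence was seen because they resemble a sterol element known from the rat FDPS promoter, occur in 0.249% of 27305 RefSeq promoters of 300 bases. The sterol regulatory element TCACNCCAC was found on neither strand of FDPS, and neither was the E-box CACGTG.

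Of 22 sterol synthesis genes searched for, 17 had such a promoter in the RefSeq table, and ACAT2 was not among them. CCAAT was present in 12 of these 17 (70.6%) against 35.7% of all promoters, and GGGCGG in 14 (82.4%) against 44.6%. CACGTG was present in 2 of 17 (11.8%) against 7.43%, TCACACGA in FDPS and MSMO1, and TCACNCCAC in none of the 17, against 1.15% of all. Motifs were matched by exact letters on both strands, and a match is a description of sequence. No motif searched overlapped another in FDPS.

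FDPS was high in every library and highest after irradiation alone. It stood at 250.4 and 250.8 FPKM in the AZD6738+IR libraries, 388.9 and 398 in IR, 200.5 and 215 in AZD6738, and 180.7 and 184.3 in DMSO. No library of any group overlapped with another group, and the order of levels was IR, AZD6738+IR, AZD6738, DMSO. How many of all loci separate by group was not counted, here or for ACAT2 below. Ranked among 9463 named genes, FDPS was at place 139 to 143 in AZD6738+IR, 99 to 100 in IR, 180 to 185 in AZD6738 and 204 to 205 in DMSO. In bulk RNA, fewer cells of a kind and less RNA per cell cannot be told apart.

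FDPS rose 2.16-fold with IR relative to DMSO, with 393.5 ± 6.48 against 182.5 ± 2.55 FPKM (SD, n = 2 each). The log2 fold change, here and below on the scale of log2(FPKM + 1), was 1.10 (SE 0.0424, limma adjusted p = 2.28e-05). In this comparison 61.8% of the 12809 loci tested passed an adjusted p of 0.05, with 23.7% of loci higher and 38% lower. The median log2 fold change of all loci was -0.1.

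Adding the inhibitor to radiation lowered FDPS. In AZD6738+IR it was at 250.6 ± 0.272 FPKM, which is 63.7% of its level in IR, with a log2 fold change of -0.65 (SE 0.0424, adjusted p = 0.000143), and 51.1% of all loci passed, 31.5% as lower. Against AZD6738 alone, AZD6738+IR was still higher, 1.21-fold over 207.8 ± 10.3 FPKM, with a log2 fold change of 0.27 (adjusted p = 0.00172, where 72.4% of loci passed, 27.1% as higher). That value moved with the scaling of the libraries, between 0.18 when each library was divided by its total (adjusted p = 0.0494) and 0.49 under quantile normalization (adjusted p = 0.000112). Against DMSO, AZD6738+IR was 1.37-fold higher, with a log2 fold change of 0.46 (adjusted p = 0.000163, where 72.7% of loci passed, 27.1% as higher).

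The inhibitor alone left FDPS at 200.5 and 215 FPKM, both above the DMSO libraries, but the difference did not pass. Its log2 fold change was 0.19 with a 95% interval of 0.08 to 0.29 and adjusted p = 0.187, in a comparison where 0.148% of loci passed, 0.0937% as higher. These were 12 loci higher and 7 lower, counts that ran from 8 (without IR A or IR B) to 25 (without DMSO B) and from 3 (without DMSO A) to 25 (without AZD6738 B) with 1 library left out.

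The effect of radiation on FDPS differed with the inhibitor. Radiation added 42.8 FPKM in cells with AZD6738 and 211 FPKM in cells without it. The interaction is the log2 effect of radiation in cells with AZD6738 less that in cells without it. For FDPS it was -0.83 (SE 0.06, adjusted p = 0.000479), and 35.5% of loci passed this test, 22.4% as lower. On the untransformed scale it was -168 FPKM, and multiplying the folds of the single treatments would have given 448 FPKM.

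**Figure D1:**
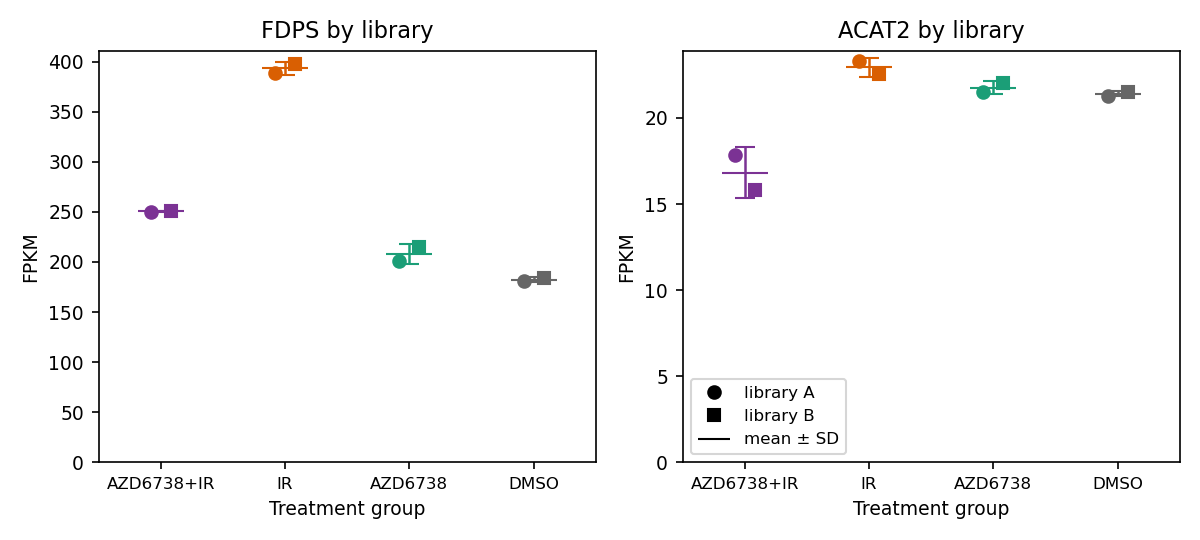
FPKM of FDPS (left) and ACAT2 (right) in each library, by treatment group, with library A as circles, library B as squares and bars for the mean ± SD (n = 2). FDPS peaks in IR at 388.9 and 398 FPKM, whereas ACAT2 is lowest in AZD6738+IR at 17.87 and 15.79 FPKM and lies between 21.29 and 23.33 elsewhere.

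ACAT2 is annotated on chromosome 6 from 159760328 to 159779055 on the plus strand (GENCODE 29, hg38). It was measured at 17.87 and 15.79 FPKM in the AZD6738+IR libraries, 23.33 and 22.54 in IR, 21.5 and 22.01 in AZD6738, and 21.29 and 21.51 in DMSO. AZD6738+IR was the only group that stood clear below all others, AZD6738 and DMSO overlapped, and the IR libraries lay just above both. Its place among the 9463 named genes was 1957 to 2106 in AZD6738+IR, 1578 to 1626 in IR, 1801 to 1835 in AZD6738 and 1812 to 1841 in DMSO.

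ACAT2 fell with the combination against each other group. In AZD6738+IR it averaged 16.83 ± 1.47 FPKM, against 22.93 ± 0.559 in IR (SD, n = 2 each), with a log2 fold change of -0.43 (SE 0.06, adjusted p = 0.0021). Against AZD6738, at 21.76 ± 0.365 FPKM, the log2 fold change was -0.35 (adjusted p = 0.00241, where 45.2% of loci passed as lower). Against DMSO, at 21.4 ± 0.154 FPKM, it was -0.33 (adjusted p = 0.00312, where 45.6% passed as lower). Quantile normalization reduced these last values to -0.19 (adjusted p = 0.0144) and -0.18 (adjusted p = 0.0174). AZD6738+IR library B, where the most abundant loci took the larger share, was the lower of the pair, and without it the log2 fold change against IR was -0.34 (adjusted p = 0.00283).

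Neither single treatment gave a pass for ACAT2. With IR the log2 fold change over DMSO was 0.10 with a 95% interval of -0.05 to 0.24 and adjusted p = 0.214. It passed when each library was centred on its median (0.16, adjusted p = 0.031) and under quantile normalization (0.19, adjusted p = 0.0172). With AZD6738 alone it was 0.02, with an interval of -0.13 to 0.17 and adjusted p = 0.916. The interaction was -0.45 (SE 0.0848, adjusted p = 0.0104), or -6.46 FPKM on the untransformed scale.

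FDPS and ACAT2 shared the direction of the interaction and of AZD6738+IR against IR, while with radiation alone FDPS rose and ACAT2 did not pass; the difference between the genes was not tested. The ratio of FDPS to ACAT2 within a library, which dividing a library by 1 factor cannot change, was 14 and 15.9 in AZD6738+IR, 16.7 and 17.7 in IR, 9.33 and 9.77 in AZD6738, and 8.49 and 8.57 in DMSO. The irradiated libraries all lay above the others, whether or not the inhibitor was present, and the AZD6738+IR pair lay below the IR pair. These ratios are given without a test.

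**Figure D2:**
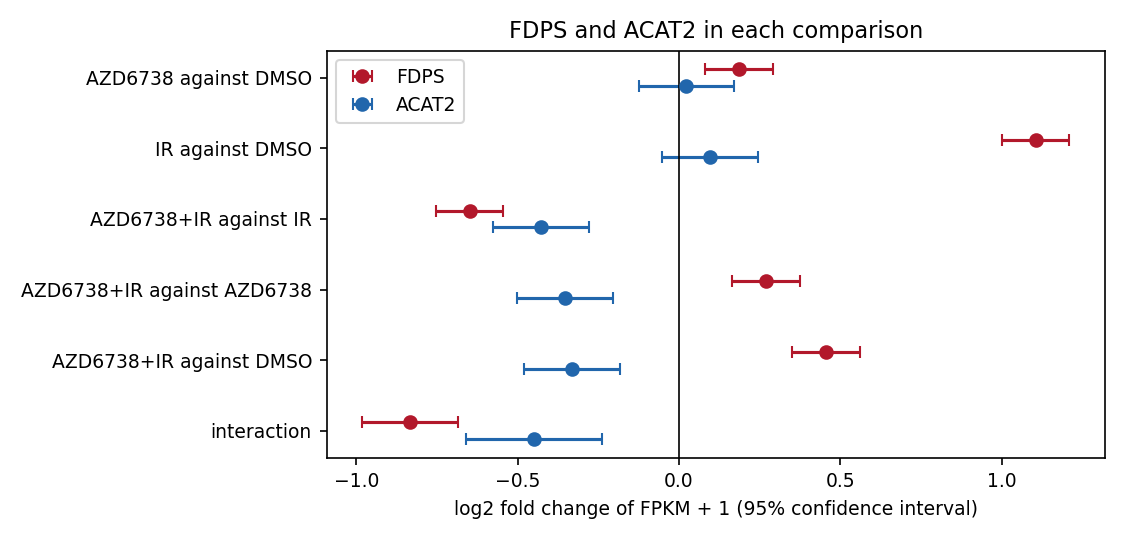
Log2 fold change of FPKM + 1 for FDPS (red) and ACAT2 (blue) in the 5 pairwise comparisons and the interaction, with points for the limma estimate and bars for the 95% confidence interval. FDPS lies at 1.10 for IR against DMSO where ACAT2 lies at 0.10, and both lie below 0 for AZD6738+IR against IR and for the interaction.

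The rest of the sterol pathway was read from lists of the mevalonate steps and of the squalene and sterol branch, of which 13 genes beside FDPS and ACAT2 were tested. With IR against DMSO 7 of these rose, 2 fell and 4 did not pass, with a median log2 fold change of 0.25 against -0.1 for all loci, of which 23.7% rose and 38% fell. FDPS had the highest value of all 15 and ACAT2 was at place 9. With AZD6738+IR against IR 1 rose, 8 fell and 4 did not pass, with a median of -0.28 against -0.07 for all loci, of which 19.6% rose and 31.5% fell. FDPS then had the second lowest value, above MVK. For the interaction 4 of 13 were lower, against 22.4% of all loci, and 9 did not pass. The median was -0.17 against -0.06, and FDPS was the lowest of the 15. MVK, DHCR7, NSDHL and SQLE were the 4 genes, of which the 3 from the sterol branch numbered 1 under quantile normalization and without AZD6738 B, IR A or IR B. No gene of the 13 passed with AZD6738 alone, where 0.148% of all loci passed.

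Among the mevalonate steps, HMGCS1, which makes HMG-CoA from the product of ACAT2, was highest in AZD6738+IR. It was at 19.33 and 18.01 FPKM in AZD6738+IR, 15.22 and 13.22 in IR, 9.93 and 10.16 in AZD6738, and 8.21 and 10.24 in DMSO. It rose with IR over DMSO (log2 fold change 0.58, adjusted p = 0.00511) and with AZD6738+IR over DMSO (0.95, adjusted p = 0.000422), the highest value among the 15 genes in that comparison. Its rise over IR (0.37, adjusted p = 0.033) ended without AZD6738 A, AZD6738 B, IR B, AZD6738+IR A or AZD6738+IR B (adjusted p between 0.0568 and 0.154), when library letter entered as a block (0.0554) and when each library was divided by its total (0.0764). In that comparison FDPS and ACAT2 had values below 0.

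MVK, mevalonate kinase, had the lowest value of the 15 genes with AZD6738+IR against IR. It had 8.95 FPKM in both AZD6738+IR libraries, 15.59 and 16.6 in IR, 17.14 and 18.01 in AZD6738, and 19.78 and 20.05 in DMSO, falling with AZD6738+IR against IR (-0.78, adjusted p = 8.6e-05) and with IR against DMSO (-0.29, adjusted p = 0.00199). IDI1, the isomerase that supplies the substrates of FDPS, was listed at 2.46 to 6.47 FPKM over the 8 libraries, with more spread within DMSO and AZD6738 than between groups, and passed in no comparison. PMVK, MVD and IDI2 had no matching row.

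In the branch from farnesyl diphosphate to cholesterol, 6 of 9 genes rose with IR against DMSO and LBR fell, against 23.7% of all loci higher and 38% lower. NSDHL, which removes a methyl group from sterol intermediates, followed the order of FDPS in the irradiated groups, with 19.16 and 19.17 FPKM in AZD6738+IR, 26.18 and 26.15 in IR, 14.83 and 16.05 in AZD6738, and 15.59 and 17.16 in DMSO. It rose with IR over DMSO (0.65, adjusted p = 0.000242) and fell with AZD6738+IR against IR (-0.43, adjusted p = 0.00175). Lanosterol synthase LSS gave the same pair of directions, at 0.54 with IR over DMSO (adjusted p = 0.00271) and at -0.28 with AZD6738+IR against IR (adjusted p = 0.043). It had 2 rows, the more abundant of which is given, and its rise did not pass when both were summed (1.01, adjusted p = 0.0546). Its fall was not examined with the rows summed or under other settings.

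DHCR7, the reductase that turns 7-dehydrocholesterol into cholesterol, stood at 35.2 and 31.47 FPKM in AZD6738+IR, below 49.92 and 50.73 in IR (-0.58, adjusted p = 0.000574). SQLE, squalene epoxidase, was lowest in AZD6738+IR, with 61.07 and 62.87 FPKM in AZD6738+IR, 79.96 and 81.5 in IR, 77.28 and 80.25 in AZD6738, and 78.66 and 86.29 in DMSO. Its values with IR overlapped those in DMSO (-0.03, adjusted p = 0.656), and it fell with AZD6738+IR against IR (-0.38, adjusted p = 0.00201). HSD17B7 rose with IR over DMSO (0.45, adjusted p = 0.000157) and kept a mean of 7.05 FPKM in AZD6738+IR, against 6.50 in IR. LBR, a sterol reductase that is also a receptor of the nuclear lamina, fell with IR over DMSO (-1.80, adjusted p = 3.74e-05). FDFT1, which commits farnesyl diphosphate to squalene, had 39.02 and 24.83 FPKM in AZD6738+IR and passed in no comparison.

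**Figure D3:**
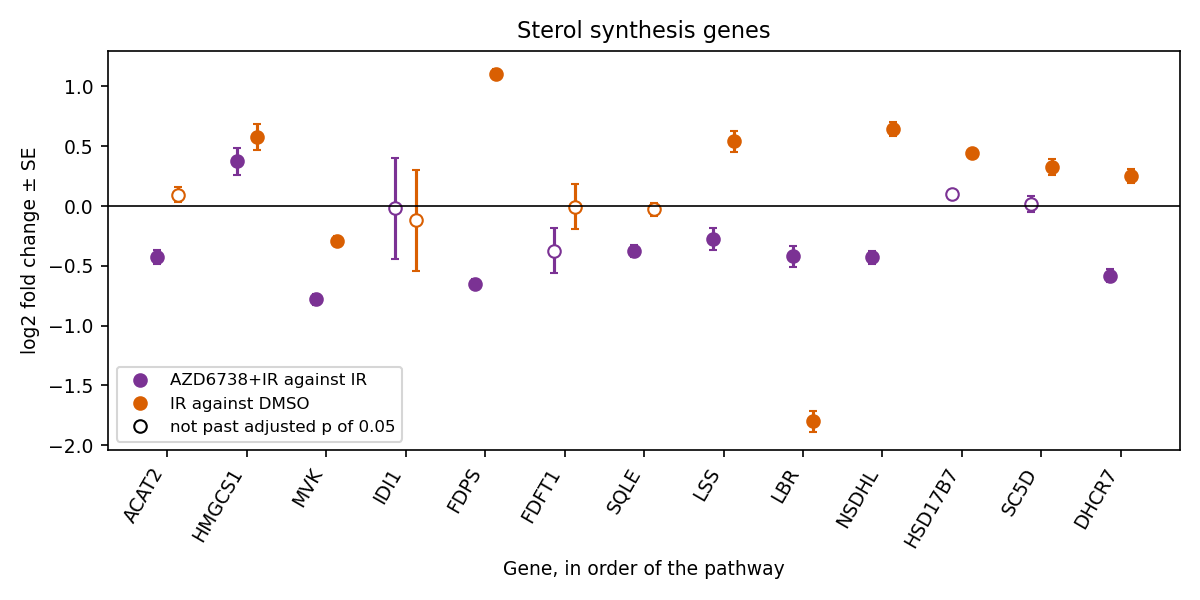
Log2 fold change ± SE of 13 of the 15 tested sterol synthesis genes in the order of the pathway, for AZD6738+IR against IR (purple) and IR against DMSO (orange), with open symbols where the adjusted p did not pass 0.05. FDPS has the highest value with IR over DMSO at 1.10, and ACAT2, MVK, FDPS, SQLE, LSS, LBR, NSDHL and DHCR7 have filled purple symbols below 0.

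Of 10 tested genes on the non-sterol routes out of farnesyl diphosphate, 1 rose and 5 fell with IR over DMSO (median -0.19), against 23.7% of all loci higher and 38% lower. With AZD6738+IR over IR 1 rose and 6 fell (median -0.24), against 19.6% higher and 31.5% lower. GGPS1, which extends farnesyl to geranylgeranyl diphosphate, was at 11.99 and 11.87 FPKM in AZD6738+IR, 11.18 and 11.04 in IR, 14.77 and 14.48 in AZD6738, and 13.22 and 13.34 in DMSO, and fell with IR over DMSO (-0.24, adjusted p = 0.00121). It was the 1 gene counted as higher with AZD6738+IR over IR (0.10, adjusted p = 0.0495), and that call ended without any single library (adjusted p from 0.0728 to 0.191). The ubiquinone genes COQ2 (-0.75, adjusted p = 0.000248) and PDSS1 (-0.45, adjusted p = 0.00135) fell with IR over DMSO. ZMPSTE24, the protease that processes farnesylated prelamin A, was the member that rose with IR over DMSO (0.48, adjusted p = 0.000431).

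Among genes of sterol sensing and uptake, 2 of 9 rose and 2 fell with IR over DMSO, which is near or below the shares of all loci, 23.7% higher and 38% lower. The count that rose ran from 0 without DMSO B to 5 under quantile normalization. SREBF1, which encodes SREBP-1, had 10.35 and 8.49 FPKM in AZD6738+IR, 8.97 and 8.73 in IR, 12.14 and 12.93 in AZD6738, and 15.87 and 15 in DMSO, and fell with IR over DMSO (-0.74, adjusted p = 0.000787). SREBF2, SCAP and INSIG1, the core of sterol sensing, had no matching row, which does not show that they were not expressed. STARD4, a sterol carrier, rose in AZD6738+IR to 10.19 and 10.18 FPKM, against 4.68 and 4.71 in IR (0.97, adjusted p = 0.0036). MBTPS1, the protease that cleaves SREBPs, fell with AZD6738+IR against IR (-0.31, adjusted p = 0.00073).

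Among 5 tested genes of the liver X receptor and sterol export, ABCG1 and NR1H3 fell with IR over DMSO. That is 2 of 5, near the 38% of all loci that were lower. NR1H2 and MYLIP did not pass. ABCG1, a sterol exporter, had 3.40 and 3.38 FPKM in AZD6738+IR, 2.69 and 2.38 in IR, 9.62 and 9.08 in AZD6738, and 8.62 and 7.76 in DMSO. It fell with IR over DMSO (-1.38, adjusted p = 3.72e-05), as did NR1H3, the receptor LXR-alpha (-0.81, adjusted p = 0.000206). Against IR, AZD6738+IR was higher for ABCG1 (0.31, adjusted p = 0.0106), a call that ended without IR B (0.25, adjusted p = 0.0578). The fifth, APOE, a lipid carrier protein, had 2.26 and 2.05 FPKM in AZD6738+IR, 1.83 and 1.54 in IR, 0.388 and 0.407 in AZD6738, and 0.205 and 0.338 in DMSO. Both irradiated groups lay above both others, but APOE reached the minimum mean of 1 FPKM only through them, so no test is given. ABCA1, SOAT1 and SOAT2 had no matching row.

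Of 8 thiolases and ketone body enzymes other than ACAT2, 6 fell and none rose with IR over DMSO (median -0.27), against 38% of all loci lower and 23.7% higher. Among the 6, BDH1 (-0.50, adjusted p = 0.00152), turned to 0.14 when its 2 rows were summed. With AZD6738+IR over IR 6 fell and 2 rose (median -0.26), against 31.5% of all loci lower and 19.6% higher. ACAT1, the mitochondrial counterpart of ACAT2, was at 21.17 and 21.21 FPKM in AZD6738+IR, 33.69 and 34.24 in IR, 53.44 and 54.05 in AZD6738, and 53.65 and 56.53 in DMSO. It fell with IR over DMSO (-0.68, adjusted p = 4.8e-05) and again with AZD6738+IR over IR (-0.66, adjusted p = 8.46e-05), whereas ACAT2 with IR over DMSO did not pass. The difference between these genes was not tested.

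Enzymes that supply and use acetyl-CoA for lipids were mixed, with 4 of 10 higher and 3 lower with IR over DMSO, against 23.7% of all loci higher and 38% lower. ACLY, ATP citrate lyase, which makes cytosolic acetyl-CoA, came closest to FDPS among the pathway genes. It had 123.82 and 119.49 FPKM in AZD6738+IR, 162.64 and 168.83 in IR, 78.86 and 81.64 in AZD6738, and 83.39 and 87.03 in DMSO. It rose with IR over DMSO (0.95, adjusted p = 2.93e-05) and fell with AZD6738+IR over IR (-0.44, adjusted p = 0.000501). SLC25A1, the mitochondrial citrate carrier that feeds ACLY, gave 0.41 (adjusted p = 0.00207) and -0.39 (adjusted p = 0.00354) in the same comparisons. ACACA, acetyl-CoA carboxylase, had 2 rows, and its fall with AZD6738+IR over IR in the row with the highest mean (-0.75, adjusted p = 0.000352) did not pass when they were summed (-0.87, adjusted p = 0.115). The desaturase genes differed in sign, since FADS1 fell (-1.11, adjusted p = 2.71e-05) and SCD5 rose (1.39, adjusted p = 6.08e-05) with IR over DMSO.

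The genes whose profile lay closest to each member were sought among 4982 other named genes with a mean of at least 5 FPKM, by the root mean square difference of centred log2(FPKM + 1) profiles over the 8 libraries. For FDPS these were TAX1BP3 at 0.0964, TP53I3 at 0.109, MGST3 at 0.111, TCTA at 0.116 and LYPLA2 at 0.117, with Pearson r from 0.961 to 0.985. TP53I3, a quinone oxidoreductase induced by p53, had 85.15 and 91.8 FPKM in AZD6738+IR, 112.44 and 116.86 in IR, 69.19 and 70.7 in AZD6738, and 58.39 and 58.01 in DMSO. ACLY, at place 9, was the closest gene of the pathway lists, while ACAT2 was at place 1424 with a difference of 0.423 and r of 0.183.

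For ACAT2 the closest were MTOR at 0.0317, FAM127B at 0.0343, SLC25A39 at 0.0394, HDAC3 at 0.0403 and NDUFA11 at 0.0425, with r from 0.973 to 0.985. MTOR, the kinase that integrates nutrient and growth signals, had 12.08 and 11.2 FPKM in AZD6738+IR, 16.69 and 16.28 in IR, 15.24 and 15.21 in AZD6738, and 15.34 and 14.66 in DMSO. MBTPS1, at place 64, was the closest gene of the pathway lists. All profiles share the same 8 libraries and their scaling, so the likeness is a description.

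**Figure D4:**
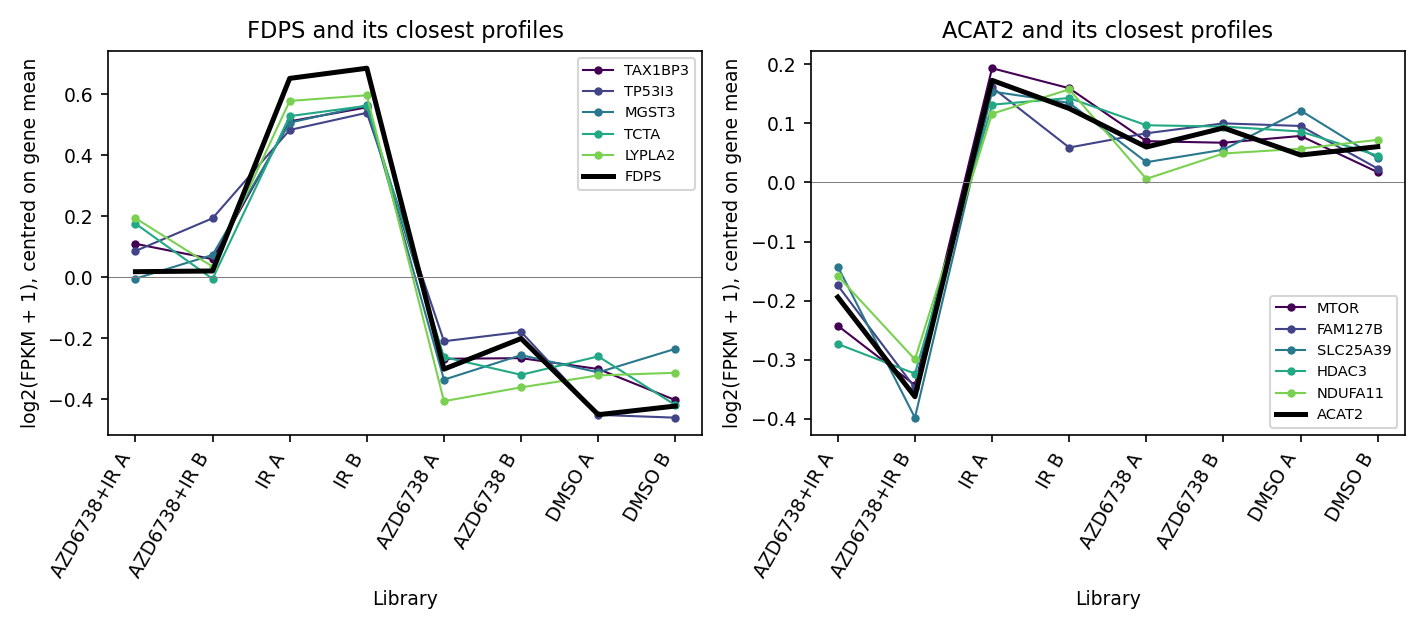
Centred log2(FPKM + 1) of FDPS (left) and ACAT2 (right), in black, and of the 5 named genes with the closest profiles, by library; lines only join the points of a gene. FDPS and its neighbours in profile peak in both IR libraries, while ACAT2 and its neighbours are lowest in both AZD6738+IR libraries.

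Overlapping and near-identical genes limit what a single locus value means. TCP1, a subunit of the cytosolic chaperonin, lies on the opposite strand and shares 397 exonic bases with ACAT2, 9.23% of the annotated ACAT2 exon bases. TCP1 had 62.93 and 66.51 FPKM in AZD6738+IR, 99 and 104.1 in IR, 131.8 and 147.9 in AZD6738, and 140.1 and 148.8 in DMSO. It fell with AZD6738+IR against IR (-0.64, adjusted p = 0.00076) as ACAT2 did, and also with IR against DMSO (-0.50, adjusted p = 0.00131). SOD2-OT1 and SOD2, which had no matching row, overlap the start of ACAT2 on the opposite strand over 1458 exonic bases (33.9% of ACAT2 exon bases) and 1141 exonic bases (26.5%). Libraries were stranded, but the sources used here do not say whether the authors' values used the strand, and the part of these overlaps in the ACAT2 values was not tested.

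FDPS has 8 processed pseudogenes that align to at least 20% of its transcript at 88.9% to 92.3% identity. None had a row under its own symbol, but loci without a symbol were not searched for them. Reads shared with these copies are therefore uncertain. No such copy of ACAT2 was found at 80% identity or above. RUSC1-AS1, without a matching row, lies across the FDPS 3′ end on the opposite strand and shares 693 exonic bases. RUSC1, which starts 230 bases beyond FDPS on the same strand, had 4.54 and 4.19 FPKM in AZD6738+IR, 2.46 in both IR libraries, 2.37 and 2.45 in AZD6738, and 2.71 and 2.45 in DMSO. It did not follow FDPS, with -0.05 for IR against DMSO (adjusted p = 0.493) and 0.63 for AZD6738+IR against IR (adjusted p = 0.000393).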

How the data were processed

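The submitters' processing notes list FastQC, HISAT2 (version 2.0.4), StringTie (version 1.3.4d) and the build hg38, without roles or settings. Per the labels' protocols, RNA was depleted of ribosomal RNA and stranded libraries were read 75 bp from both ends. The authors made and deposited 1 filtered table of values per locus, taken here as FPKM although its header names no unit. The values are fractional with unequal totals, which a filtered table of TPM could also show, so the unit remains an assumption. TPM would differ by 1 factor per library. The authors also deposited a p-value per locus for an unnamed comparison, which was not used.

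For symbols with several rows the one with the highest mean was kept (14645 loci, 9463 named). Tests were made with limma (version 3.58.1, under R 4.3.3) after log2(FPKM + 1), with an intensity trend, 1 coefficient per group, all 8 libraries, and a mean of at least 1 FPKM (12809 loci, 4 residual degrees of freedom), two-sided, with Benjamini-Hochberg adjustment over all loci. The fit was tested on simulated data. Columns were matched to groups by name, and their letters to no replicate number. Of 87 pathway genes in 7 lists, 57 had a row. Named were FDPS, ACAT2, the mevalonate genes, sentinels, genome neighbours, up to 4 called members of each other list per contrast with the largest change, of which a part is printed, and the 5 closest profiles. FDFT1 and SLC25A1 fall outside this rule and were chosen with their values seen. Some other printed values also fall outside it, among them HSD17B7 with IR over DMSO and LSS with AZD6738+IR against IR. Some list genes are counted but not reported singly here. Members and lists were chosen with earlier results of these data known. Copies were found with BLASTN 2.17.0. The alternatives were other scalings, a pseudocount of 0.1, other filters, summed rows, only the groups compared, the library letter as a block, and leaving out each library.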

Additional observations from a re-analysis of the deposited data

Results flagged for a closer look

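The effect of radiation differed between cells with and without AZD6738, by the limma interaction at an adjusted p under 0.05, for FDPS (-0.83) and ACAT2 (-0.45) on the log2 scale. FDPS gave 0.27 with AZD6738 and 1.10 without it, and ACAT2 gave -0.35 with AZD6738 and 0.10 without it. Of all loci 35.5% passed this test, 22.4% as lower and 13.1% as higher.

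Most list genes were named for this test because they passed it, so the number named below follows from that rule. Of all 57 pathway genes tested, 19 were lower and 2 higher, against 22.4% and 13.1% of all loci. The other named genes that passed with a negative interaction were MVK (-0.61), SQLE (-0.31), NSDHL (-0.35) and DHCR7 (-0.46) of sterol synthesis, and PDSS1 (-0.77), NUS1 (-0.45), COQ2 (-0.39) and MBTPS1 (-0.34) of the branches and sterol sensing. ACAT1 (-0.62), OXCT1 (-0.49) and HADHB (-0.47) of the thiolase list, ACACA (-0.72), ME1 (-0.55), FADS1 (-0.4) and ACLY (-0.36) of the fatty acid list, the neighbour TCP1 (-0.59) and the epithelial marker TP63 (-0.5) were lower too. Those with a positive interaction were RUSC1 (0.7), MYLIP (0.35), BDH2 (0.39), KRT8 (1.3), KRT17 (0.66), KRT14 (0.51) and CD68 (0.44). Several of these calls ended under alternatives, namely SQLE (adjusted p up to 0.0781), NSDHL (up to 0.0671) and COQ2 (up to 0.0779) under quantile normalization and without some single libraries, and ACACA (0.181) with its 2 rows summed. MYLIP and CD68 lost theirs when library letter entered as a block (0.0548 and 0.063), under division by totals (0.0782 and 0.141) and without most single libraries (up to 0.114 and 0.128). Groups of 2 libraries were not searched for single libraries that stand apart.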

How the results depend on the processing

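For FDPS and ACAT2 no called direction changed and no call was lost under any alternative, including the library letter as a replicate block, with which FDPS was at 1.10 for IR against DMSO (adjusted p = 0.000106) and ACAT2 at -0.43 for AZD6738+IR against IR (0.00423). Deviations of same-lettered libraries correlated at -0.05 to 0.16 over 6 pairs of groups. Such values cannot show whether libraries of 1 letter were handled together. ACAT2 with IR over DMSO gained a call when libraries were centred on their median (0.16) and under quantile normalization (0.19), and the cause was not tested. The pathway genes higher in the interaction numbered 2, but 1 with libraries divided by their total, 0 with a mean of at least 5 FPKM and 5 with totals taken without the 4 most abundant loci, an alternative chosen after seeing the data. With 1 library left out the pathway count higher in the interaction ran from 1 to 2. The pathway count higher with AZD6738 over DMSO ran from 0 to 1 (1 without AZD6738 A), where 0.0937% of all loci were higher with all libraries. The pathway count higher with AZD6738+IR over IR ran from 2 (without IR B) to 6. With all libraries it was 7 of 57, against 19.6% of all loci. No scaling moved the median of all loci by over 0.1.

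Of other named genes, 2 called values changed sign, both when rows of a symbol were summed: BDH1 with IR over DMSO, -0.50, went to 0.14, and LSS with AZD6738+IR over AZD6738, 0.41, to -0.0211. The cause was not tested. The other sign changes were of uncalled values. Median centring gave 0.037 for SQLE and 0.0189 for RUSC1 with IR over DMSO. Quantile normalization gave 0.0465 for SQLE with IR over DMSO. Division by totals gave -0.0189 for ASH1L with IR over DMSO. Totals without the 4 loci gave 0.0157 for SQLE with IR over DMSO, 0.0287 for IDI1 with AZD6738+IR over IR and 0.0186 for the GGPS1 interaction.

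With 1 library left out, values for AZD6738 over DMSO ran from -0.025 to 0.26 for HMGCS1, -0.52 to 0.59 for IDI1, -0.13 to 0.0017 for SQLE, -0.0716 to 0.0024 for ACAT1, -0.0213 to 0.0099 for ASH1L and -0.13 to 0.0344 for TCP1. For IR over DMSO they ran from -0.67 to 0.44 for IDI1, -0.0951 to 0.037 for SQLE, -0.10 to 0.0061 for RUSC1 and -0.0189 to 0.0638 for ASH1L. For AZD6738+IR over IR they ran from -0.0402 to 0.0021 for IDI1 and -0.0542 to 0.20 for SREBF1. Over AZD6738 they ran from -0.62 to 0.27 for IDI1, and over DMSO from -0.69 to 0.42 for IDI1. For the interaction they ran from -0.61 to 0.50 for IDI1. The depth behind the values is unknown, and 2 libraries a group limit their precision.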
